A study of Mus musculus with 43 samples.

Results

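CD4+ T cells from mouse spleen were compared 2 h after an injection of interferon alpha and without one. The comparison used the 5 arrays, of 43 in the series, whose titles name CD4+ T cells, with 2 interferon and 3 baseline arrays. Interferon arrays held cells from male C57BL/6 mice aged 6 weeks and injected subcutaneously with 10000 U of interferon alpha. Baseline arrays held cells from male C57BL/6 mice of the same age, with no injection and no vehicle in their labels. All 5 were labelled as conventional CD4+ T cells of the spleen, and CD4 was the only marker named for the sort. Total RNA was hybridised to Affymetrix arrays of the Mouse Gene 1.0 ST design. The other 38 arrays covered 8 further immune cell types under the same treatments. The labels do not tell which arrays, if any, share an animal. Every p-value below therefore reflects only the variation among arrays, which may be technical. In the main fit that variation is pooled over all 43 arrays and every cell type, not the CD4+ arrays alone.

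Type I interferons such as interferon alpha bind a receptor made of IFNAR1 and IFNAR2, which is found on nearly all nucleated cells. The receptor's kinases JAK1 and TYK2 phosphorylate STAT proteins, and a complex that contains STAT2 and IRF9 binds interferon-stimulated response elements in the promoters of target genes. Those targets include antiviral enzymes, sensors of foreign nucleic acid and feedback inhibitors, and in helper T cells the same cytokine can modify activation, survival and migration.

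Levels are given as log2 of the deposited intensity, so that a difference of 1 is a 2-fold change, and they are comparable between arrays for a gene but not between genes. The T cell genes were high in all 5 arrays. Cd4 stood at 11.28 and 11.32 in the interferon arrays, against 11.92, 11.93 and 11.39 in the baseline arrays. Several genes that define other cells were near the low end of the scale. Ncr1, an NK cell receptor gene, lay between 4.87 and 5.78 in these 5 arrays and averaged 13.42 in baseline NK cells. S100a8, a neutrophil gene, lay between 4.81 and 5.36 and averaged 13.47 in baseline neutrophils. Cd8a lay between 5.99 and 6.77, against 11.83 in baseline CD8+ T cells. Foxp3, the regulatory T cell factor, was intermediate, at 9.26 and 9.46 in the interferon arrays and 9.36, 9.27 and 9.53 in the baseline arrays, against 11.98 in sorted regulatory T cells at baseline. Il2ra, the gene of the IL-2 receptor alpha chain that regulatory and activated T cells carry, had 10.22 and 10.81 in the interferon arrays and 10.11, 10.20 and 10.20 in the baseline arrays, against 12.9 in baseline regulatory T cells. Cd8b1, the partner chain of CD8, was also intermediate, at 8.49 and 9.19 in the interferon arrays and 8.34, 8.31 and 8.73 in the baseline arrays, against 12.19 in interferon CD8+ T cells and 5.96 in the group with the lowest mean. Of 13 marker lists for lymphoid, myeloid, erythroid and other cells, none of the genes was called except Bst2, a plasmacytoid dendritic cell marker that interferon also induces in other cells.

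Baseline array 3 stood apart from baseline arrays 1 and 2. It correlated with them at 0.9695 and 0.9711 over all probe sets, against 0.9956 between arrays 1 and 2, and 608 genes differed by at least 1 between array 3 and the mean of the others. Its cells were labelled with a digestion step, those of baseline arrays 1 and 2 with staining, and the interferon arrays with wording of another kind, which names the injection. Preparation and treatment therefore cannot be told apart in these cells. The interferon arrays correlated with each other at 0.9823, and interferon array 2 had the higher level in 157 of the 178 genes called higher below. Small nuclear and nucleolar RNA genes had medians of 10.31 and 9.83 in the interferon arrays and 8.59, 9.05 and 9.88 in the baseline arrays. Their median log2 change was 0.59, against 0.01 over all genes. By the rule below 0 of these 59 genes were called, which is near the share over all genes (0.901% higher, 0.0658% lower). Their part in the results was not tested. These are bulk samples, in which fewer cells of a type and less RNA per cell cannot be told apart.

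Interferon was followed within 2 h by a set of rises and few falls. A gene was called when its limma p, adjusted over all 19752 genes by the Benjamini-Hochberg method, was below 0.05 and its change at least 1. By this rule 178 genes rose, or 0.901% of those tested, and 13 fell, or 0.0658%. Of the 178, 7 rose by 4 or more on the log2 scale, 13 by 3 or more and 59 by 2 or more, with a median of 1.67 against 0.01 over all genes. In each of the 178, both interferon arrays lay above all 3 baseline arrays, an arrangement that 11.3% of all genes showed. Without the minimum change, 244 genes (1.24%) were higher and 76 (0.385%) lower.

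Antiviral effectors led the rises. Ifit3b, one of the Ifit genes, whose proteins bind viral RNA and block its translation, had levels of 8.48 and 9.59 in the interferon arrays, against 4.31, 3.92 and 4.56 in the baseline arrays. It changed 27.3-fold, a log2 change of 4.77 (SE 0.326, adjusted p = 2.33e-12). Rsad2 encodes viperin, an enzyme that makes a chain-terminating nucleotide. It stood at 11.1 and 11.7 in the interferon arrays, against 7.34, 7.03 and 6.62 in the baseline arrays, and rose 21.1-fold (log2 change 4.40, SE 0.262, adjusted p = 1.92e-13). Cmpk2, its neighbour in the genome, which encodes a mitochondrial nucleotide kinase, rose by 3.59 (SE 0.253). The gap between the groups was several times the spread within either group for both genes.

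Mx2, a gene of the Mx family of dynamin-like GTPases, had levels of 9.57 and 9.83 in the interferon arrays. Its baseline levels were 5.70, 5.71 and 4.61, and it rose 20.5-fold (log2 change 4.36, SE 0.273). Mx1 rose by 4.09 (SE 0.310). These are RNA values, and whether C57BL/6 mice make working protein from either gene was not measured. Ifitm3, whose protein blocks the fusion of viruses with endosomes, stood at 10.33 and 11.61 in the interferon arrays, against 6.47, 6.81 and 6.58 in the baseline arrays. Its 2 interferon arrays differed by more than a doubling, yet both were far above baseline, and the log2 change was 4.35 (SE 0.462, adjusted p = 4.2e-08). Its relatives did not share a change of that size. Ifitm2 had a log2 change of 0.72 (adjusted p = 0.511), and Ifitm1 and Ifitm6 had changes of 0.29 and 0.39 with no call. Isg20, a gene for an exonuclease that degrades viral RNA, rose by 3.26 (SE 0.231).

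The plot of levels by array for the largest rises shows every interferon point to the right of every baseline point of the same gene.

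**Figure D1:**
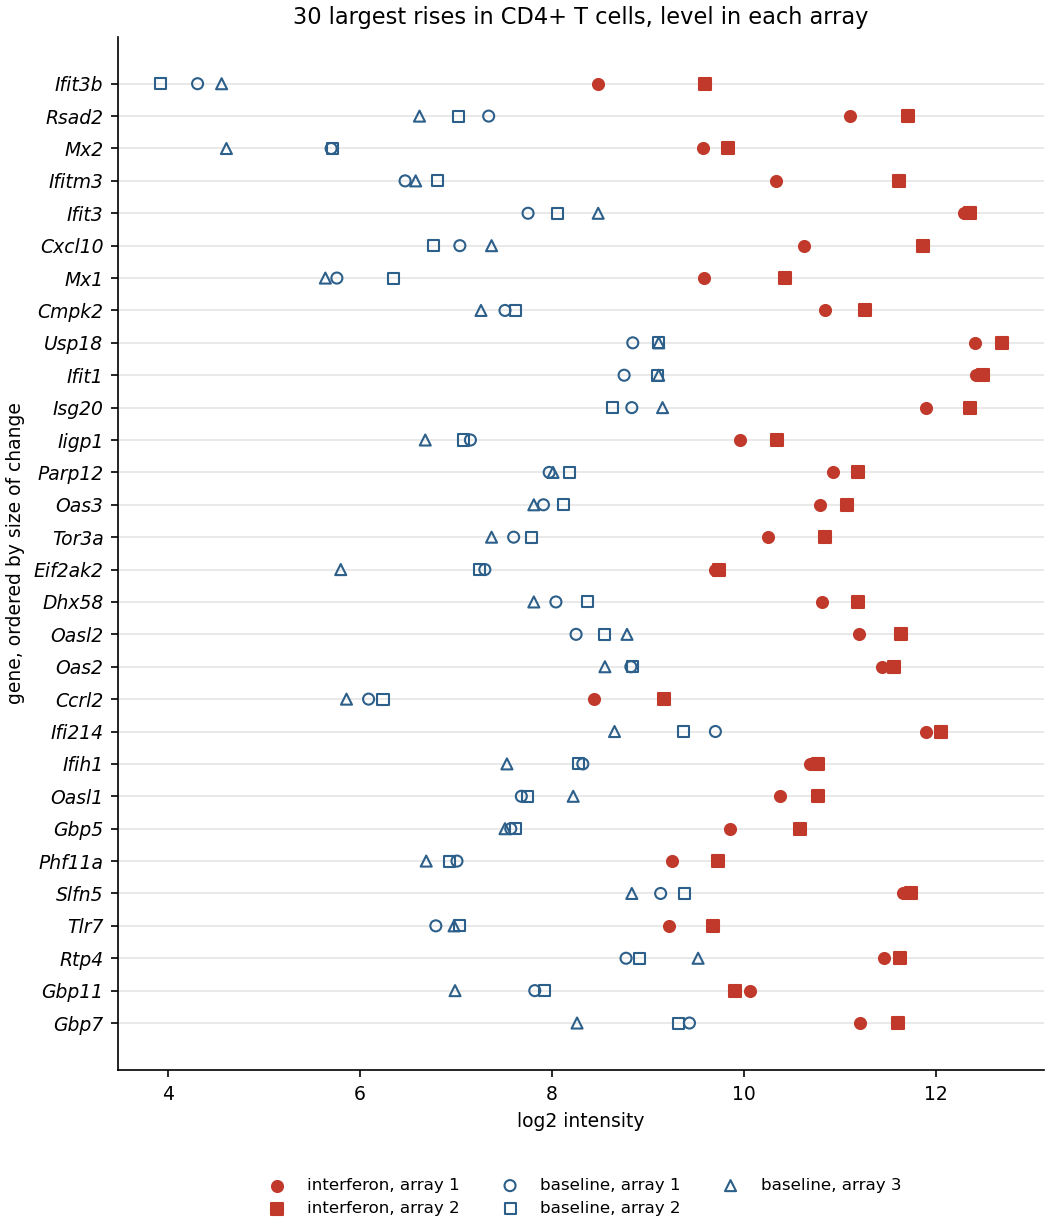
Log2 intensity (horizontal axis) of the 30 genes with the largest called rises in CD4+ T cells, 1 gene per row, with filled points for the 2 interferon arrays and open points for the 3 baseline arrays. Ifit3b, at the top, lies at 8.48 and 9.59 after interferon and between 3.92 and 4.56 at baseline, and no gene shown has overlapping groups.

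The genes Ifit3b, Rsad2, Ifitm3, Ifit3 and Cxcl10 are the 5 largest of these rises whose promoter window holds the core of the interferon-stimulated response element, GAAA followed by any 2 bases and GAAA again, on either strand, and they are printed to show where it lies. Sequences are those of RefSeq on GRCm38.p6, 5′ to 3′ along the gene's strand, in lower case with matches in capitals. For the other 4 genes the 250 bases before the annotated start are given, and for Ifitm3, whose 2 matches lie after the start, only the stretch from the first to the last match. Ifit3b spans chr19:34607707-34607956 on the plus strand, Rsad2 chr12:26456453-26456702 on the minus strand, Ifitm3 chr7:141010716-141010742 on the minus strand, Ifit3 chr19:34583279-34583528 on the plus strand and Cxcl10 chr5:92348890-92349139 on the minus strand.
Ifit3b: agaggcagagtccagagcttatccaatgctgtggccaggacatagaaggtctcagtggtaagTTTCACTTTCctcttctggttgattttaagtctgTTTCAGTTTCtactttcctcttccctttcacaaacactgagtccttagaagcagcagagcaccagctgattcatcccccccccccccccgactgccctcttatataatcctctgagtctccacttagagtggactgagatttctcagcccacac
Rsad2: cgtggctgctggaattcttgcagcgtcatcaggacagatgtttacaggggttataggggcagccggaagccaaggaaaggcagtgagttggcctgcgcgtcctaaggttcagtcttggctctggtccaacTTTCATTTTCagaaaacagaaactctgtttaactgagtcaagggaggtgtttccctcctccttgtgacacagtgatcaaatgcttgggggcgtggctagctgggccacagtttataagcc
Ifitm3: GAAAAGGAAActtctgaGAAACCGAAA
Ifit3: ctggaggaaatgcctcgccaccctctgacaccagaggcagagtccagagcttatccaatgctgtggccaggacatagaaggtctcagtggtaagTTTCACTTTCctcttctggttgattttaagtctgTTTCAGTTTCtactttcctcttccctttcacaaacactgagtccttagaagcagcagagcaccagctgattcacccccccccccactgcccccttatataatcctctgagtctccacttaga
Cxcl10: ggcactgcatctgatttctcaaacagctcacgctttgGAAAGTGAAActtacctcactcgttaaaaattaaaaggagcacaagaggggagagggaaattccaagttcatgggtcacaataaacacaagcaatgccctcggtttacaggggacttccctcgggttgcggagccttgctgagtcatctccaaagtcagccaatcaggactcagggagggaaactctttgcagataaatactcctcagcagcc

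In Ifit3b the matches begin 188 and 154 bases before the start, and in Ifit3 156 and 122 bases before it, all read on the opposite strand as TTTCACTTTC and TTTCAGTTTC. The Ifit3 and Ifit3b windows share a stretch of 169 identical bases, and the array may not tell these close copies apart. Rsad2 has 1 match that begins 120 bases before the start, and Cxcl10 has 1 that begins 213 bases before it. The Ifitm3 matches begin 2 and 19 bases after the start.

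Over all raised genes the core was common. Of 178 raised genes, 144 had a promoter window of 300 bases (250 before and 50 after the start), and 50 of these held the core, a share of 34.7% (95% Wilson interval 27.4 to 42.8%). Of 15483 measured genes with a window, 601 held it, or 3.88%. Among the 30 largest rises, 14 of the 20 with a window did, or 70.0%, and among the lowered genes 0 of 10 did, which allows a share of up to 27.8%. With a C required after the core, a longer motif that overlaps the shorter one by design, the shares were 22.9% of raised and 0.898% of all genes. Of 69 matches in raised genes, 17 began in the 50 bases before the start, 18 in the 50 bases before those and 5 in the farthest 50 bases, against 83, 76 and 146 of 595 matches in the other genes. The share in the farthest 50 bases was 7.25% in raised genes and 24.5% in the others, a description with no test. A match describes letters only, and intervals cover counting error only.

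**Figure D2:**
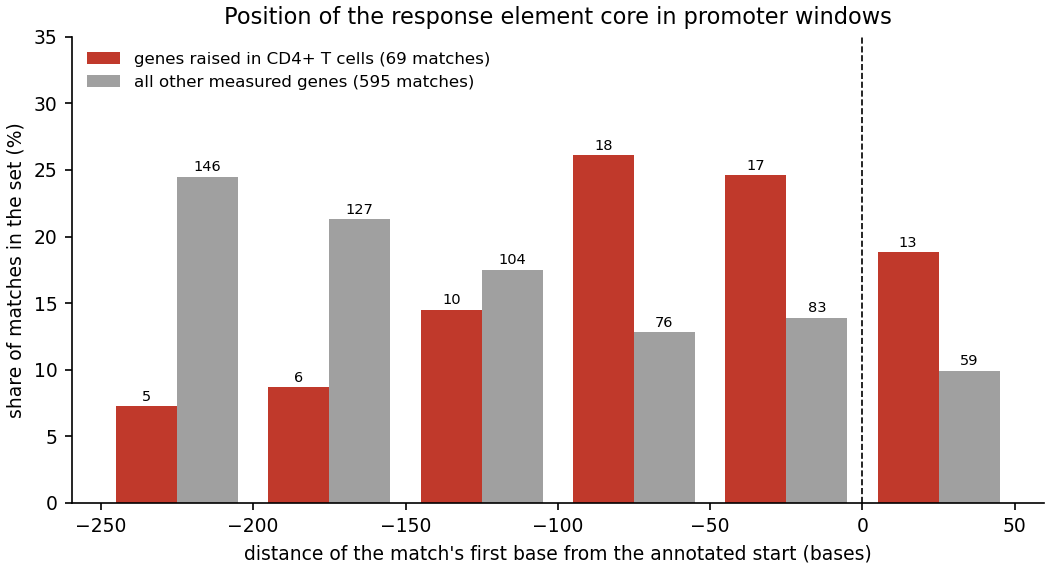
Share of matches to the response element core (vertical axis, percent of each set's matches) by distance of the first base of the match from the annotated start (horizontal axis, bases, in bins of 50), for raised genes and all other measured genes, with the number of matches above each bar. Among raised genes the bin just before the start holds 24.6% of matches, against 13.9% among other genes, and the next bin outward holds 26.1% against 12.8%.

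The oligoadenylate synthetases detect double-stranded RNA and, in most cases, make a messenger that activates RNase L. Oas3 had levels of 10.79 and 11.07 in the interferon arrays, against 7.91, 8.12 and 7.81 in the baseline arrays, and rose 7.90-fold (log2 change 2.98, SE 0.223). Oas2 rose by 2.76 (SE 0.215), Oasl2 by 2.88 (SE 0.254), Oasl1 by 2.69 (SE 0.184), Oas1a by 2.13 (SE 0.212) and Oas1b by 2.14 (SE 0.294). The Oas1 genes are near-identical copies, so their separate values are uncertain. Eif2ak2, the gene of the kinase PKR that halts translation, rose by 2.94 (SE 0.341), with levels of 9.70 and 9.74 in the interferon arrays and 7.30, 7.24 and 5.80 in the baseline arrays. Baseline array 3 was the lowest for that gene by more than a doubling.

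Of 26 measured antiviral effectors, 19 rose and none fell, with a median change of 2.82. Those not called included Adar, an RNA-editing enzyme gene, at 0.99 (adjusted p = 0.00517), Samhd1, which encodes a nucleotide hydrolase, at 0.86 (adjusted p = 0.0339), and Zc3hav1, which encodes a zinc finger antiviral protein, at 0.34 (adjusted p = 0.641). Adar and Samhd1 passed the p threshold and missed the minimum change.

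The signalling chain itself changed little above its last steps. Of 7 receptor and JAK kinase genes, none was called, and their changes ran from -0.46 to 0.14. Stat2, a component of the interferon-activated complex, was the 1 of 6 STAT genes that rose, with levels of 10.75 and 10.91 in the interferon arrays, against 8.76, 8.95 and 8.43 in the baseline arrays (log2 change 2.12, SE 0.238). Irf7, a factor that amplifies interferon production, stood at 11.45 and 11.84 in the interferon arrays, against 9.30, 9.48 and 9.09 in the baseline arrays (log2 change 2.36, SE 0.239). Irf9, the DNA-binding partner of STAT2, rose by 1.07 (SE 0.229, adjusted p = 0.00517). With a term for arrays whose preparation label mentions staining, it came to 0.85, short of a doubling. That term assumes the same effect in every cell type and does not separate preparation from treatment. Without interferon array 2 the Irf9 change was 0.99, also short of a doubling. Irf1 had a change of 0.93 (adjusted p = 0.0209), and Irf8 of 0.71 with no call. In all, 2 of 8 interferon regulatory factor genes were called.

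Negative feedback genes split in the same manner. Usp18, which encodes a protease that removes ISG15 and blocks the receptor, had levels of 12.40 and 12.68 in the interferon arrays, against 8.84, 9.11 and 9.11 in the baseline arrays, an 11.4-fold rise (log2 change 3.52, SE 0.257, adjusted p = 7.25e-12). Socs1, an inhibitor of JAK kinases, rose by 1.26 (SE 0.203). The remaining 8 of 10 listed regulators, among them phosphatase genes, were not called.

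Sensors of nucleic acid rose in part. Of 18 measured sensor and adaptor genes, 8 rose and none fell. Among the cytosolic RNA helicases, Ifih1, the gene of MDA5, rose by 2.69 (SE 0.283), Dhx58, the gene of LGP2, by 2.92 (SE 0.232) and Ddx58, the gene of RIG-I, by 1.35 (SE 0.289). Tlr7, an endosomal receptor for single-stranded RNA, had levels of 9.22 and 9.68 in the interferon arrays, against 6.79, 7.04 and 6.98 in the baseline arrays (log2 change 2.51, SE 0.302). Tlr3, for double-stranded RNA, rose by 1.89 (SE 0.228) and Zbp1, which binds Z-form nucleic acid, by 2.08 (SE 0.174). The adaptor gene Myd88 had a change of 0.99 (adjusted p = 0.0658), and the adaptors Mavs and Sting1 changes of -0.23 and 0.17 without a call. Ddx58 lost its call when either interferon array was left out, with adjusted p of 0.0696 and 0.0919.

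Most listed GTPase and ligase genes rose. All 9 measured interferon-inducible GTPase genes, which act at the membranes of intracellular pathogens, were called, from Gbp8 at 1.25 (SE 0.263) to Iigp1 at 3.18 (SE 0.246). Gbp8 lost its call when either interferon array was left out (adjusted p = 0.0785 and 0.067). Iigp1 stood at 9.96 and 10.34 in the interferon arrays, against 7.15, 7.08 and 6.68 in the baseline arrays. Gbp5 rose by 2.65 (SE 0.266), and Gbp7 and Gbp11 by 2.40 each. Gbp genes resemble one another closely, so their separate values are uncertain. Of 14 genes around ISG15 and related modifiers, 11 rose and none fell, among them Ube2l6, the conjugating enzyme of ISG15, at 2.40 (SE 0.325), Herc6, its ligase in mice, at 2.26 (SE 0.337), and Parp12, an ADP-ribosyltransferase gene, at 3.00 (SE 0.229). Uba7, the activating enzyme of ISG15, had a change of 0.91 (adjusted p = 0.00574). Of 10 TRIM ligase genes, 7 rose, with Trim30d at 2.31 (SE 0.292) and Trim21, a cytosolic antibody receptor gene, at 1.97 (SE 0.239). Of 7 schlafen genes, 5 rose, with Slfn5 at 2.58 (SE 0.324) and Slfn3 at 2.30 (SE 0.230). Slfn2, a gene needed for T cell quiescence in mice, had a change of 0.74 (adjusted p = 0.0233).

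Raised genes often lay side by side. In the order of RefSeq genes, with unmeasured genes skipped, 64 of 178 raised genes (36%) had a raised gene as a neighbour. Among the other genes 267 of 19557 (1.37%) did. The longest runs held 5 genes each. They were the Ifit run of Ifit2, Ifit3, Ifit3b, Ifit1bl2 and Ifit1, the run of the Ifi200 family with Ifi214, Ifi213, Ifi209, Ifi208 and Ifi207, and the run of Trim12a, Trim12c, Trim30a, Trim30d and Trim30e-ps1. Related copies can share probes, so runs of this kind may count 1 transcript more than once. The run of Parp14, Dtx3l and Parp9 had changes of 1.98 (SE 0.283), 1.57 (SE 0.308) and 2.17 (SE 0.258), and Dtx3l lost its call without interferon array 2 (1.35, adjusted p = 0.109).

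Genes of T cell function moved less than antiviral genes. Cd274, the PD-L1 gene, whose product restrains T cells, had levels of 10.62 and 10.81 in the interferon arrays, against 8.67, 8.57 and 8.57 in the baseline arrays (log2 change 2.11, SE 0.290, adjusted p = 6.79e-06). Cd86, a costimulatory ligand better known from antigen-presenting cells, stood at 8.46 and 8.94 in the interferon arrays, against 6.88, 6.86 and 6.93 in the baseline arrays (log2 change 1.81, SE 0.271). Cd69, whose protein holds lymphocytes in tissue by opposing the receptor S1PR1, stood at 11.3 and 11.51 in the interferon arrays, against 9.98, 10.04 and 9.80 in the baseline arrays (log2 change 1.47, SE 0.247). These were the 3 of 22 activation and checkpoint genes that rose, and none fell. None of 22 T cell receptor signalling genes was called, with changes from -0.70 to 0.21. None of 23 immediate early genes was, with changes from -0.75 to 0.69. With 0.901% of all genes called higher and 0.0658% lower, no call in lists of this size is near the general share.

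Among 21 cytokine and effector genes, 2 rose. Tnfsf10, the TRAIL gene, had levels of 9.93 and 10.24 in the interferon arrays, against 7.96, 8.27 and 7.44 in the baseline arrays (log2 change 2.19, SE 0.273). Ifng, the gene of interferon gamma, stood at 7.67 and 8.51 in the interferon arrays, against 7.07, 6.98 and 6.98 in the baseline arrays (log2 change 1.08, SE 0.223, adjusted p = 0.00355). Without interferon array 2 the Ifng change was 0.66 (adjusted p = 0.297). Il10 had a change of 0.95 (adjusted p = 0.0331). Gzmb, the granzyme B gene, had levels of 6.71 and 7.85 in the interferon arrays, against 6.18, 6.04 and 6.51 in the baseline arrays, with a change of 1.03 (adjusted p = 0.328). Both Ifng and Gzmb were higher in interferon array 2 than in array 1. The NK cell marker Gzma moved in the same direction. It stood at 6.79 and 6.93 in the interferon arrays and 4.95, 4.68 and 5.53 in the baseline arrays. Its log2 change was 1.8 (adjusted p = 0.0513), and it was called higher under 6 alternatives (adjusted p from 2.86e-05 to 0.0499). Klrb1c, the gene of the NK1.1 receptor, moved in the opposite direction, at 5.43 and 5.24 in the interferon arrays and 6.68, 6.45 and 5.91 in the baseline arrays (log2 change -1.01, adjusted p = 0.0531), and was called lower under 6 alternatives (adjusted p from 0.000603 to 0.0477). The summed intensity of the 13 NK cell markers was 1093 and 1210 in the interferon arrays and 1124 to 1306 in the baseline arrays.

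Of 12 chemokine genes, Cxcl10 alone was called. Its protein attracts T cells that carry CXCR3, and its levels were 10.62 and 11.86 in the interferon arrays, against 7.04, 6.77 and 7.37 in the baseline arrays (log2 change 4.18, SE 0.301). Cxcl9, a second CXCR3 ligand gene, had 5.96 and 7.59 in the interferon arrays, against 6.04, 5.97 and 5.78 in the baseline arrays, so that its rise rested on interferon array 2 and was not called (adjusted p = 0.493). Ccrl2, a chemerin-binding receptor gene, rose by 2.74 (SE 0.244).

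Cell death genes rose in part. Of 27 measured, 9 rose and none fell. They included Daxx, a nuclear regulator of death and transcription, at 2.33 (SE 0.191), Xaf1, an antagonist of the inhibitor XIAP, at 2.21 (SE 0.156), Pml, a nuclear body gene, at 1.71 (SE 0.252), Casp4, at 1.51 (SE 0.333), Mlkl, the effector of necroptosis, at 1.38 (SE 0.267) and Casp1, at 1.03 (SE 0.229). Casp4, Mlkl and Casp1 came to 0.73, 1.02 and 0.65, each without a call, when interferon array 2 was left out. Genes of the BCL2 family were not called, and Bcl2l11, the gene of BIM, had a change of -0.72.

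The measured genes for MHC class I presentation moved by small amounts. The listed class I genes H2-K1, H2-D1, H2-Q6, H2-Q7, H2-T22 and H2-T23 were not measured. Of 17 measured, 3 were called, namely the class Ib gene H2-T24 at 1.79 (SE 0.220) and the immunoproteasome subunit genes Psmb10 at 1.19 (SE 0.236) and Psmb8 at 1.15 (SE 0.230). The other immunoproteasome subunit gene, Psmb9, had a change of 0.89 (adjusted p = 0.000653), and Tapbp, the gene of tapasin, 0.79 (adjusted p = 0.0289). In 13 of the 17 both interferon arrays lay above all baseline arrays, and the median change was 0.63. Psmb10 and Psmb8 missed the threshold without interferon array 2, with adjusted p of 0.093 and 0.109.

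**Figure D3:**
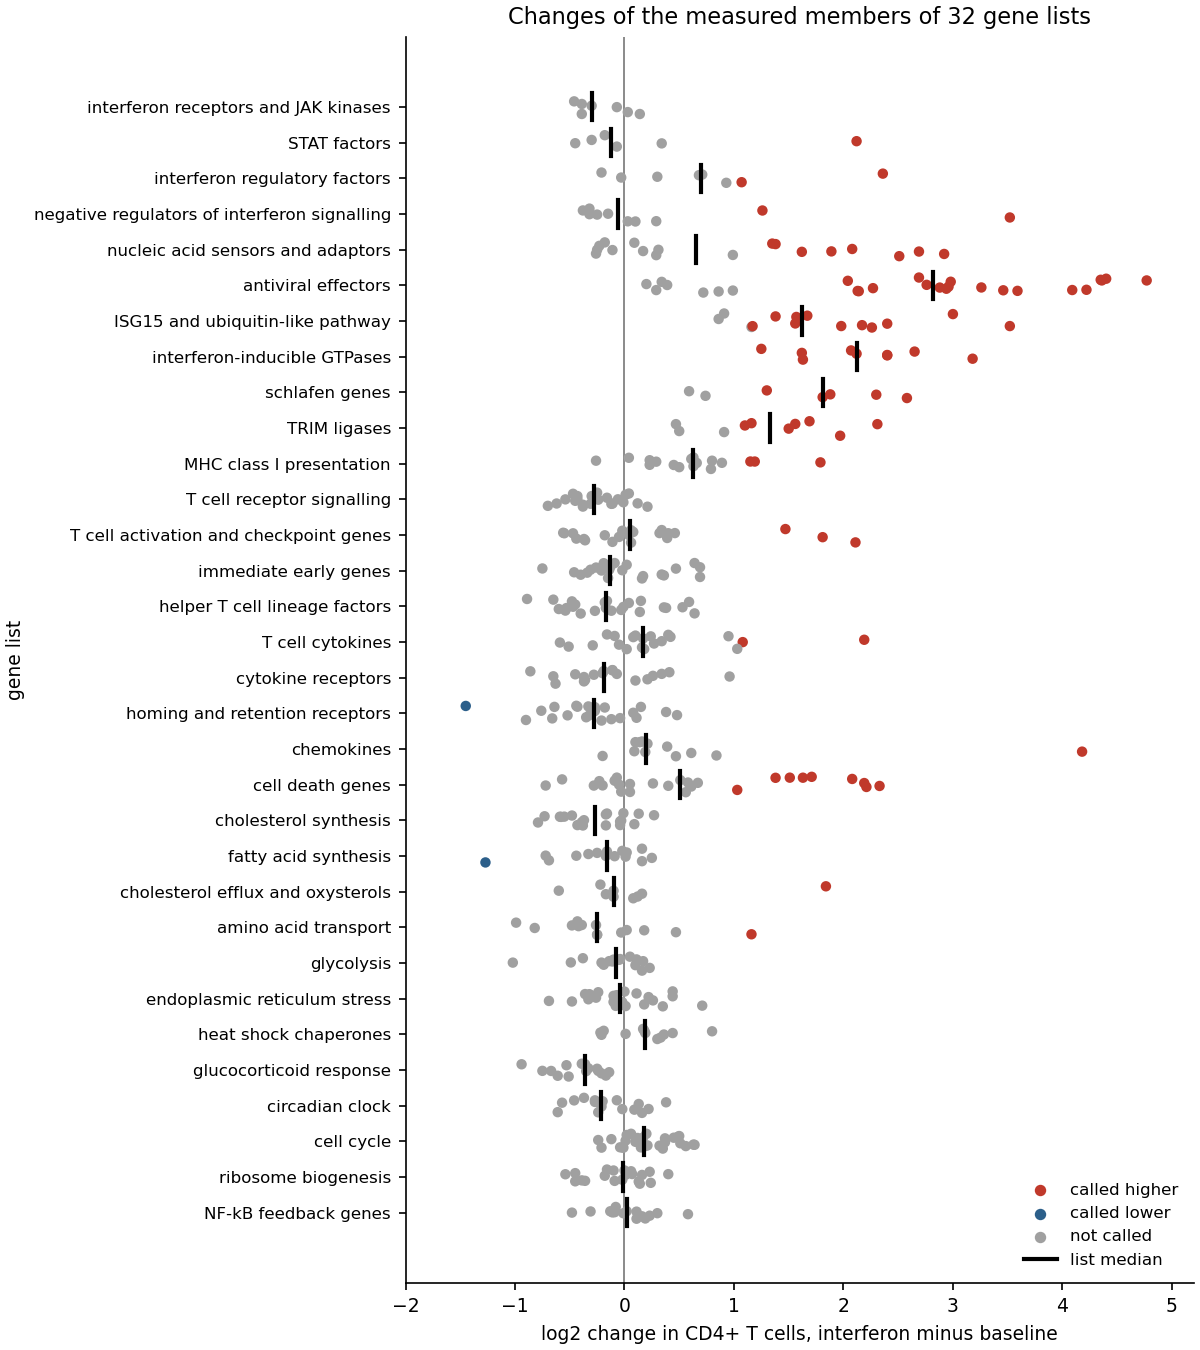
Log2 change from interferon minus baseline in CD4+ T cells (horizontal axis) for each measured member of 32 gene lists (rows), with a black bar at each list's median. Called members gather in the antiviral, GTPase, ISG15, schlafen and TRIM rows. T cell receptor signalling, lineage factor, cell cycle and ribosome rows hold no called member, which is near the share over all genes (0.901% higher, 0.0658% lower).

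Other T cell lists held few calls, as did the whole array, where 0.901% of genes were called higher and 0.0658% lower. A list below with no call is therefore near the general share. None of 24 lineage factor genes was called. Batf, a factor of effector differentiation, had a change of 0.64 (adjusted p = 0.0488), and Foxo1 and Lef1, factors of naive T cells, changes of -0.89 (adjusted p = 0.206) and -0.65 (adjusted p = 0.0665). None of 19 cytokine receptor genes was called, and Il12rb1, a subunit of the IL-12 and IL-23 receptors, was nearest at 0.96 (adjusted p = 0.000991). S1pr1, the egress receptor gene, had levels of 10.58 and 10.76 in the interferon arrays, against 11.5, 11.49 and 11.0 in the baseline arrays, with a change of -0.66 (adjusted p = 0.264). Ccr7, a lymph node homing receptor gene, had a change of -0.44 (adjusted p = 0.406). Both S1pr1 interferon levels lay below all 3 baseline levels, an arrangement that 11.6% of all genes showed. Neither the S1pr1 nor the Ccr7 change passed the adjusted p threshold. Of 14 amino acid transport genes, Slc25a22, a mitochondrial glutamate carrier gene, rose by 1.16 (SE 0.230). Its call was lost without interferon array 2 (1.11, adjusted p = 0.0668) and without baseline array 3 (0.99, adjusted p = 0.0183). Slc43a2, a neutral amino acid transporter gene, had a change of -0.99 (adjusted p = 0.0268). Lists for glycolysis, endoplasmic reticulum stress, heat shock, glucocorticoid response, the circadian clock, the cell cycle, ribosome biogenesis, cholesterol synthesis and NF-kB feedback held no call. The nearest to one by p were Herpud1, an endoplasmic reticulum stress gene, at -0.69 (adjusted p = 0.00847), and Cry1, a clock repressor gene, at -0.57 (adjusted p = 0.0287).

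Falls were fewer and smaller. Rflnb, the gene of refilin B, an actin regulator, had levels of 9.80 and 9.43 in the interferon arrays, against 11.18, 11.36 and 10.77 in the baseline arrays, and fell by 1.49 on the log2 scale (SE 0.275, adjusted p = 0.000908). Vipr1, a neuropeptide receptor gene expressed by resting T cells, stood at 8.92 and 9.15 in the interferon arrays, against 10.67, 10.60 and 10.18 in the baseline arrays, and fell by 1.45 (SE 0.201, adjusted p = 7.42e-06). A second, dimmer probe set of Vipr1 had a change of -0.50. Smad7, an inhibitor of TGF-beta signalling, stood at 8.41 and 7.98 in the interferon arrays, against 9.72, 9.75 and 9.06 in the baseline arrays, and fell by 1.31 (SE 0.317, adjusted p = 0.0193). Baseline array 3 lay between the interferon arrays and baseline arrays 1 and 2 for all 3 genes.

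Scd2, a fatty acid desaturase gene, had levels of 7.67 and 8.12 in the interferon arrays, against 9.40, 9.48 and 8.62 in the baseline arrays, and fell by 1.27 (SE 0.259, adjusted p = 0.00298). Klf3, a transcriptional repressor gene, stood at 9.42 and 9.61 in the interferon arrays, against 10.84, 10.87 and 10.30 in the baseline arrays, and fell by 1.15 (SE 0.256). The other 8 falls were of similar size. Thra, a thyroid hormone receptor gene, changed by -1.26 (SE 0.239), Lrrc8b, a subunit gene of volume-regulated anion channels, by -1.31 (SE 0.330), Tent5c, a poly(A) polymerase gene, by -1.02 (SE 0.243), and Nipal1, a magnesium transporter gene, by -1.21 (SE 0.270). Mtmr10 and Ocrl, of phosphoinositide phosphatase families, changed by -1.19 (SE 0.286) and -1.05 (SE 0.259), and Zfp874b and Klhdc2 by -1.23 (SE 0.293) and -1.03 (SE 0.266). In 12 of the 13 lowered genes baseline array 3 lay between the interferon arrays and baseline arrays 1 and 2.

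The falls depended on every array except baseline array 3. Of the 13, 4 kept their call without interferon array 1, 4 without interferon array 2, 6 without baseline array 1 and 5 without baseline array 2. Against baseline array 3 alone, 4 genes were lower and 1 of them, Vipr1, was among the 13. Without array 3, 109 genes were lower, among them all 13. The rises held more firmly, with 184 genes against baseline array 3 alone, of which 148 were among the 178, and 188 without that array, of which 162 were.

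**Figure D4:**
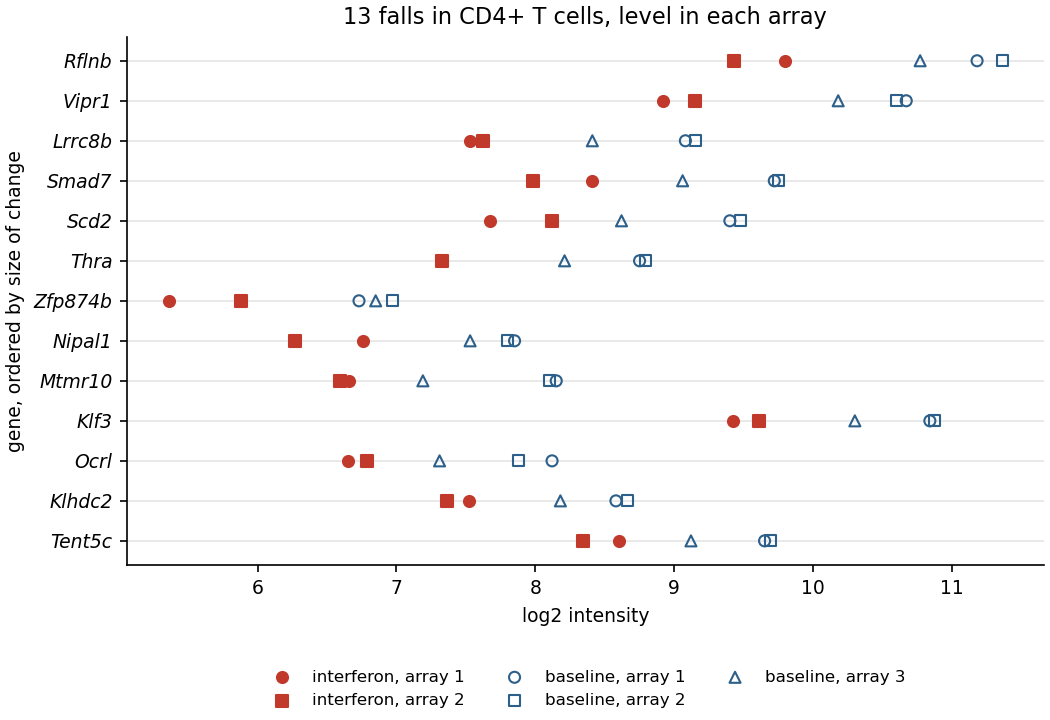
Log2 intensity (horizontal axis) of the 13 lowered genes in CD4+ T cells, 1 gene per row, with filled points for the 2 interferon arrays and open points for the 3 baseline arrays. Baseline array 3, the triangle, lies nearest the interferon arrays in 12 of the 13 genes.

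The response was then set beside those of the other 8 cell types in the series, which were fitted in the same model. In all of those 8 types 92 genes were raised, and 90 of the 92 were called in CD4+ T cells. In each of the 92 both interferon arrays lay above all baseline arrays. The exceptions to the call were Adar, described above, and Etnk1, an ethanolamine kinase gene, at 0.76 (adjusted p = 0.2). Over the 92 genes the median change was 1.98 in CD4+ T cells. CD8+ and regulatory T cells had medians of 2.04 and 2.06. Gamma-delta T cells had 2.35, NK cells 2.32 and NKT cells 2.74, while the myeloid types had 2.59 (dendritic cells), 2.56 (macrophages) and 2.70 (neutrophils). The 92 were chosen by their calls in the other 8 types, which favours larger changes there, so the medians are a description and no order between the types is read from them. Macrophages had 1 interferon array, so their calls and their median rest on 1 array that is assumed to vary like the other groups.

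Few raised genes were called in CD4+ T cells and in few other types. Of the 178, 146 were raised in 6 or more of the other 8, and 3 in none, namely Gm11487, Svs3b and Tas2r118. These 3 and Atg13 are named because of their values and fall outside the rule for named genes. Irf9 and Atg13, an autophagy gene, were called in 2 other types each, and Psmb10 in 1. Atg13 was not called without interferon array 2 (0.83, adjusted p = 0.286), and Gm11487, Svs3b and Tas2r118 were not called without interferon array 1 (0.94, 0.69 and 0.81). Of the 13 lowered genes, Ocrl and Tent5c were lowered in no other type, and Scd2 was lowered in 7. A call in 1 type and not in another is no test of a difference, and the differences themselves were tested as follows.

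Of 19752 genes, none responded more strongly and 5 (0.0253%) responded less strongly in CD4+ T cells than on average in the other 8 types, at adjusted p below 0.05 and a difference of at least 1. The limma test gave 1211 genes at an unadjusted p below 0.05. Ifit2 had levels of 10.39 and 10.92 in the interferon arrays, against 8.32, 8.51 and 8.33 in the baseline arrays, and rose by 2.27 (SE 0.269) in CD4+ T cells, against a mean of 4.05 elsewhere (difference -1.78, SE 0.287, adjusted p = 0.00526). Its change was 2.88 in CD8+ T cells and 2.01 in regulatory T cells, and reached 5.31 in macrophages and 5.86 in neutrophils. CD4+, CD8+ and regulatory T cells lay at the low end and the myeloid cells at the high end for this gene.

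Ccnj, a cyclin family gene, had levels of 6.91 and 7.53 in the interferon arrays, against 7.85, 7.63 and 7.69 in the baseline arrays. Its change of -0.50 (adjusted p = 0.272) compared with a mean of 0.99 elsewhere (difference -1.5, SE 0.213, adjusted p = 0.000947). Naa25, a subunit of an N-terminal acetyltransferase, Tagap, a GTPase-activating protein gene of T cells, and Lipg, an endothelial lipase gene, had changes of -0.20, -0.43 and 0.01 without a call. Their differences from the other types were -1.41, -1.13 and -1.06 (adjusted p = 0.0387 each). Lipg lay between 5.12 and 5.55 in all 5 arrays, near the low end of the scale. In CD8+ and regulatory T cells Ccnj changed by 0.07 and -0.27 and Naa25 by 0.41 and -0.15. Tagap changed by -0.68 and -0.06 in those types, and Lipg by 0.74 and 0.03. In neutrophils Ccnj changed by 2.95, Naa25 by 3.16, Tagap by 3.54 and Lipg by 4.24. All 5 differences were lost when the comparison was kept to lymphocytes, with values from -1.02 for Ifit2 to -0.21 for Tagap, and also without interferon array 1, with adjusted p from 0.176 for Ccnj to 0.509 for Tagap.

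**Figure D5:**
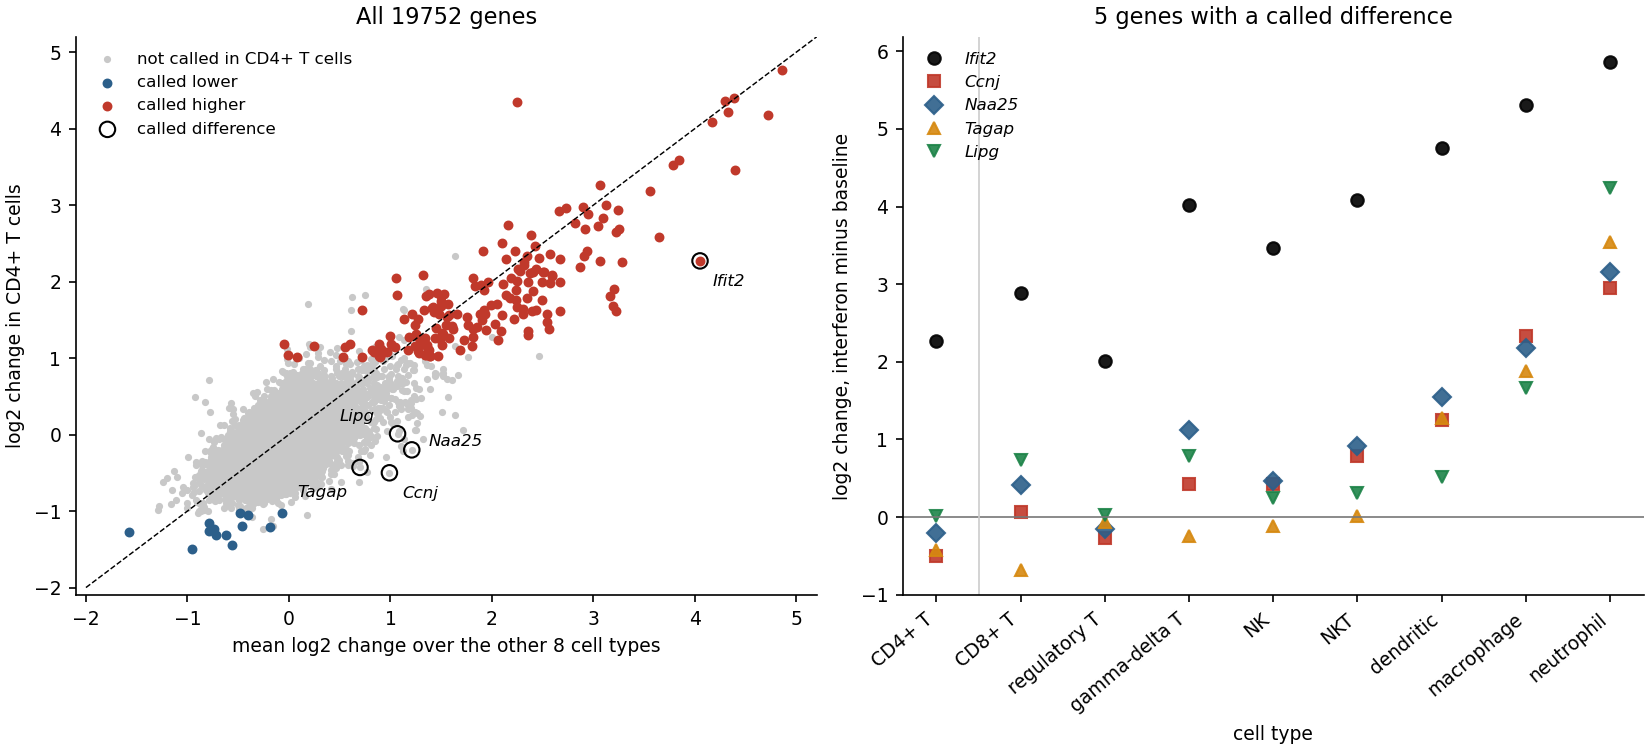
Left, log2 change in CD4+ T cells (vertical axis) against the mean log2 change over the other 8 cell types (horizontal axis) for all 19752 genes, with equality dashed and the 5 genes with a called difference circled. Right, log2 change (vertical axis) of those 5 genes in each cell type, where Ifit2 is 2.27 in CD4+ T cells and 5.86 in neutrophils.

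Ifitm3 lay farthest on the other side among the named rises. It changed by 4.35 in CD4+ T cells and by 3.08 in CD8+ T cells, and by 0.44, 0.02 and 0.53 in dendritic cells, macrophages and neutrophils. Its difference of 2.10 from the mean of the other types (SE 0.493) did not pass (adjusted p = 0.148). Slfn5 had the smallest change of the 9 types in CD4+ T cells, at 2.58 against a mean of 3.65 elsewhere, again without a call for the difference (adjusted p = 0.533).

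No gene differed in its response between CD4+ and CD8+ T cells or between CD4+ and regulatory T cells, at 2 interferon and 3 baseline arrays per type. The limma test gave 493 and 377 genes at an unadjusted p below 0.05, a smallest adjusted p of 1 in both, and a median standard error of 0.280, so that differences of about a doubling were not detectable. Nearest to a difference from regulatory T cells was Vipr1, at -1.45 in CD4+ T cells and -0.20 in regulatory T cells (difference -1.24, SE 0.284, unadjusted p = 0.000113). Nearest from CD8+ T cells among genes raised in CD4+ T cells was Slfn5os, at 2.05 in CD4+ T cells and 0.94 in CD8+ T cells (difference 1.11, SE 0.299, unadjusted p = 0.000771), a gene that overlaps Slfn5.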

How the data were processed

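The authors deposited a linear intensity per probe set for every array. RMA and Affymetrix Power Tools are named in the submitters' processing notes, while the build and the tool versions were not given in the sources used here. Over 43 arrays the values ran from 4.69 to 22042, with medians of 105 to 125, and log2 was taken of them with no more scaling. There were no detection calls, so precision rests on the number of arrays. One gene symbol belonged to 21425 of 24922 probe sets, several to 1399 and none to 2098. For 921 symbols with more than 1 probe set the brightest was kept, giving 19752 genes.

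The 18 groups were fitted together in limma 3.58.1 under R 4.3.3 (lmFit, eBayes, two-sided, with 25 residual degrees of freedom), after a test on simulated data. Differences between cell types are contrasts of that fit. Promoter windows and gene order came from RefSeq (GRCm38.p6). Named genes are the 30 largest called rises without predicted genes, all called falls and differences, and members of 32 lists, of whose 579 genes 517 were measured. Members and lists were chosen with earlier results of these data known. The arrays were not treated as pairs. Deviations of 2 interferon arrays from their mean are exact opposites, so the correlations of deviations (-0.306 to 0.306) cannot tell whether replicate numbers pair the arrays. The alternatives are in the closing section. Their preparation term marks arrays whose preparation label mentions staining, with the same effect assumed in every cell type. It does not separate preparation from treatment in CD4+ T cells.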

Additional observations from a re-analysis of the deposited data

Results flagged for a closer look

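The difference between the interferon effect in CD4+ T cells and its mean in the other 8 cell types passed limma's test for 5 genes. It was -1.78 on the log2 scale for Ifit2, -1.5 for Ccnj, -1.41 for Naa25, -1.13 for Tagap and -1.06 for Lipg. None of the 5 passed when only lymphocytes were compared, when baseline array 3 stood alone as the baseline, or without interferon array 1. The fit with baseline array 3 alone used that array in every cell type and left out neutrophils, which have no baseline array 3. Neutrophils had the largest changes of all 5 genes, so their absence and the change of baseline cannot be told apart there. No group in this comparison has the 4 arrays needed to test single arrays as outliers.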

How the results depend on the processing

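The 30 largest rises kept their direction and call under all 16 alternatives, with changes between 2.02 and 5.33, and no called gene named in the text reversed. Among uncalled genes, Mavs came to 0.09 and Ifitm1 to -0.01 against baseline array 3 alone, and Sting1 ranged from -0.21 to 0.54 with 1 array left out. Raised genes numbered 160 with a preparation term, 201 with quantile normalisation, 226 with array weights and 124 to 188 with 1 array left out, the lowest without interferon array 2 (112 of the 178 among them). Lowered genes numbered 4 against baseline array 3 alone, 142 with array weights, 76 with no minimum change and 5 to 109 with 1 array left out (6 and 5 without baseline arrays 1 and 2, 109 without baseline array 3, 8 and 9 without interferon arrays 1 and 2). Of the 13 falls, 1 kept its call against baseline array 3 alone, 4 without interferon array 1, 4 without interferon array 2, 6 without baseline array 1, 5 without baseline array 2 and 13 without baseline array 3. Genes that responded less in CD4+ T cells than in the other 8 types numbered 0 among lymphocytes only, 0 against baseline array 3 alone, 94 with array weights and 0 to 10 with 1 array left out (0 without interferon array 1, 2 without interferon array 2, 3, 1 and 10 without baseline arrays 1, 2 and 3), and those that responded more 1 with quantile normalisation and 9 with array weights. Array weights gave 8 genes higher and 34 lower in the difference from regulatory T cells, where other settings gave none. The replicate block, whose numbers are not known to pair these arrays, gave 197 raised and 18 lowered genes. With the longer motif the shares were 22.9% of raised and 0.898% of all promoters. Differences between cell types against baseline array 3 alone left out neutrophils, which have no baseline array 3. The causes of the shifts above were not tested. Signal over background limits dim genes such as Tas2r118, and leaving out an interferon array leaves 1, which is then assumed to vary like other groups.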

Other observations

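Of the 178 raised genes, 98 belonged to none of the function lists, and the following were picked from them after their values were seen. Nampt, the rate-limiting enzyme of NAD salvage, had levels of 10.20 and 10.46 in the interferon arrays, against 8.33, 8.22 and 7.57 in the baseline arrays, and rose by 2.29 (SE 0.350). Ppa1, an inorganic pyrophosphatase gene, rose by 2.04 (SE 0.287), and Clic4, a chloride intracellular channel gene, by 2.17 (SE 0.261). Jaml, the gene of a junctional adhesion molecule, stood at 8.51 and 8.61 in the interferon arrays, against 6.70, 6.47 and 6.54 in the baseline arrays, and rose by 1.99 (SE 0.182). Rgs1, a regulator of chemokine receptor signalling, rose by 1.83 (SE 0.351) and was called in 4 of the other 8 types. Among surface and kinase genes, the nucleotide-sugar receptor gene P2ry14 rose by 1.54 (SE 0.248), Ms4a6d by 1.94 (SE 0.264), Ms4a4c by 1.6 (SE 0.309) and Map3k8, a kinase of the ERK pathway, by 1.26 (SE 0.190). Without interferon array 2, Rgs1 came to 1.56 (adjusted p = 0.0985), Ms4a4c to 1.31 (adjusted p = 0.121) and P2ry14 to 1.05 (adjusted p = 0.0761), each without a call, and against baseline array 3 alone Rgs1 came to 1.57 (adjusted p = 0.133).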
